A study of Mus musculus with 6 samples.

Results

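The 39 genes described here encode subunits of the Polycomb repressive complexes, the heterochromatin protein 1 (HP1) family, histone H3 lysine 9 (H3K9) methyltransferases and their partners, the DNA methylation machinery, and enzymes that remove repressive marks. They were chosen by name, from what the proteins do, among 21887 protein-coding genes. Open chromatin around them was mapped with ATAC-seq, which uses Tn5 transposase to cut and tag accessible DNA, in cultured mouse dermal fibroblasts grown in DMEM with fetal calf serum. The groups were wildtype cells (WT, 3 libraries) and cells labelled Lap2alpha KO (KO, 3 libraries). The labels give no allele, clone, age, sex or number of animals for either group. The data used here are 1 deposited peak list per genotype, with 106132 WT and 98072 KO peaks. Each list is taken to cover the 3 libraries of its genotype, because it is named by genotype with no replicate number. A gene's peaks are those whose summit lies in its span or within 20 kb of either end. Such windows around the 39 genes held 362 WT and 335 KO peaks.

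Lap2alpha is a product of Tmpo, a protein of the nuclear interior that binds A-type lamins. Polycomb repressive complex 2 (PRC2) methylates histone H3 at lysine 27, and Polycomb repressive complex 1 (PRC1) ubiquitinates histone H2A and can compact chromatin. Together they keep developmental genes silent in differentiated cells such as fibroblasts. H3K9 methylation is bound by HP1 proteins in compact heterochromatin, much of which lies at the nuclear lamina, and DNA methylation of CpG sites adds a further layer of silencing. A peak marks DNA that Tn5 could reach. It does not measure the level of the gene's RNA or protein.

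The peak lists carry no replicates and no read totals, so the depth is unknown and no difference between the genotypes could be tested. Intervals given for shares are exact (Clopper-Pearson) 95% binomial intervals and cover counting error only. Peak strength is given as a signal percentile, the rank of a peak's deposited signal within its own list from 0 (weakest) to 100 (strongest). Since this signal sums over the width of a peak, a percentile moves when a caller joins or splits neighbouring peaks. At Tmpo itself, 16 WT and 14 KO peaks were listed, with a gene-start peak at percentile 95.6 in WT and 95.1 in KO, and a peak list cannot show whether the protein is absent. Of 8 fibroblast markers, 7 had a peak within 1 kb of the start in both lists (Lum in neither), at percentiles of 43.4 to 99.8 in WT and 68.6 to 99.9 in KO. No start peak was listed in either genotype for 4 keratinocyte, 3 leukocyte, 3 muscle and 2 adipocyte markers. Of 3 endothelial markers, Cdh5 had one in both lists (percentile 45.00 in WT and 5.97 in KO). In bulk samples, fewer open cells and less opening per cell cannot be told apart.

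Most open sites at the 39 genes were called in both genotypes. A peak is called shared when 1 bp or more of it overlaps any peak from the other genotype, and WT-only or KO-only when it does not. Of the 362 WT peaks, 300 were shared (82.9%, interval 78.6% to 86.6%) and 62 were WT-only (17.1%). Of the 335 KO peaks, 302 were shared (90.1%, interval 86.4% to 93.1%) and 33 were KO-only (9.85%). Across windows of all protein-coding genes, 18.5% of WT peaks were WT-only and 12.2% of KO peaks were KO-only, so the 39 genes lay near, and slightly below, the background in both lists. The WT list is longer, and WT-only peaks outnumbered KO-only peaks across the genome as well. When both lists were cut to the same number of peaks, 73554 each by signal, the direction at the 39 genes turned, with 23 WT-only against 34 KO-only peaks, while all protein-coding windows gave 7729 against 7867.

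The peaks called in 1 genotype were short and weak, at the 39 genes as across all protein-coding windows. At the 39 genes the WT-only peaks had a median width of 223 bp and a median percentile of 12.6, and the KO-only peaks 221 bp and 15.9. Shared peaks had median widths of 600.5 bp in WT and 608.5 bp in KO, at median percentiles of 62.3 and 62.0. Over all protein-coding windows, WT-only peaks had medians of 231 bp and percentile 16.7, and KO-only peaks 238 bp and 15.5. At the 39 genes, 47 of the 62 WT-only and 21 of the 33 KO-only peaks lay below percentile 25, a count not made over all genes. Above percentile 50 lay 3 peaks of each kind. The 3 WT-only ones were in the windows of Pcgf1 (percentile 79.6), Suz12 (55.2) and Pcgf5 (52.5), and the 3 KO-only ones in those of Uhrf1 (61.0), Ezh2 (54.9) and Dnmt3a (53.7). A KO peak lay within 1 kb of 23 of the 62 WT-only peaks, and a WT peak within 1 kb of 11 of the 33 KO-only peaks.

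Gene by gene, 26 of the 39 had more WT-only than KO-only peaks, 7 had more KO-only peaks and 6 had equal numbers, 3 of them with neither kind (Setdb1, Trim28 and Dnmt3b). Among all protein-coding genes the shares were 37.4% with more WT-only peaks, 19.2% with more KO-only peaks, 43.3% with equal numbers and 36.5% with neither kind. The 39 genes had a median of 9 WT and 8 KO peaks per window, against 5 and 4 for all genes. The part of peak number in these shares was not tested. Among the protein-coding genes with a start peak in both lists, 44.6% had more WT-only and 23.4% more KO-only peaks. With lists of equal length, 10 of the 39 genes had more WT-only (25.6%) and 17 more KO-only peaks (43.6%), and of all protein-coding genes 23.6% and 22.4% did.

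**Figure D1:**
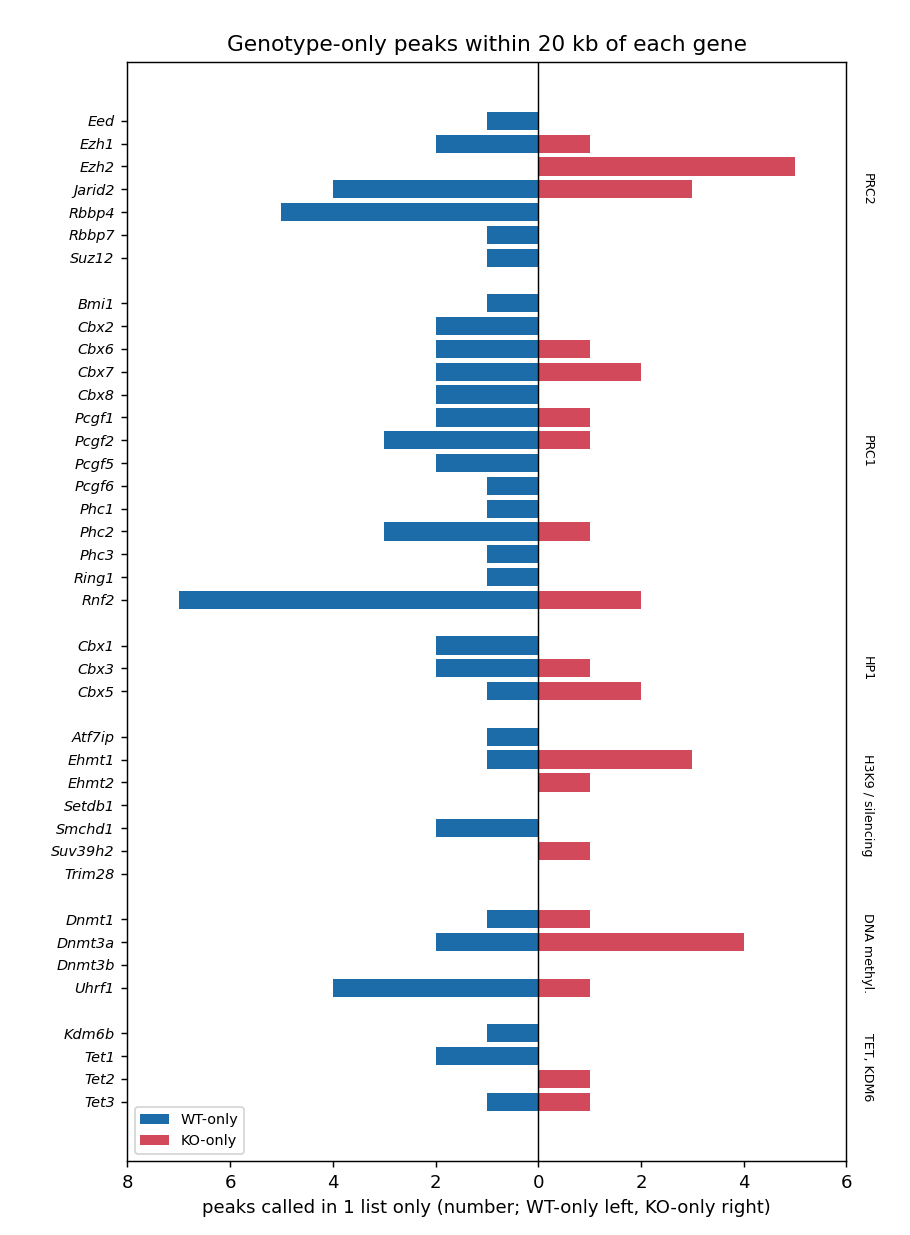
Number of peaks called in 1 genotype only within 20 kb of each of the 39 genes, grouped by role, with WT-only peaks as bars to the left and KO-only peaks as bars to the right. Rnf2 has the longest WT-only bar (7 peaks) and Ezh2 the longest KO-only bar (5 peaks), and 13 of the 14 PRC1 genes have a longer bar on the WT side. The WT-only bars of Cbx2 and Cbx8 count the same peaks.

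The 7 PRC2 genes had 66 WT peaks, of which 14 were WT-only (21.2%), and 63 KO peaks, of which 9 were KO-only (14.3%). These are the methyltransferases Ezh1 and Ezh2, Eed, which binds the methylated lysine, the scaffold Suz12, the histone-binding proteins Rbbp4 and Rbbp7, and the accessory subunit Jarid2. Of the 7 genes, 6 had more WT-only peaks and Ezh2 alone had more KO-only peaks. Of all protein-coding genes, 37.4% had more WT-only and 19.2% more KO-only peaks. The WT-only surplus of the PRC2 genes was turned in lists of equal length, with 6 WT-only against 10 KO-only peaks.

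Ezh2, the main PRC2 methyltransferase of dividing cells, lies on chr6:47530274-47595270 and had 1 WT peak and 6 KO peaks. The WT peak, chr6:47594943-47595735, covered the gene start over 793 bp, at percentile 75.8 and a summit −log10 p of 12.7. The KO peak at the same place, chr6:47594753-47596121, covered 1369 bp, at percentile 90.3 and a summit −log10 p of 16.7, with its summit at nearly the same base (-87 bp from the start in WT and -90 bp in KO). The other 5 KO peaks were KO-only. The strongest of them, chr6:47594096-47594645 at percentile 54.9, had its summit 498 bp into the gene, and 2 more lay 6476 and 7530 bp into the gene at percentiles 0.355 and 34.0. The last 2 lay beyond the 3′ end, at percentiles 39.2 and 14.4, the second of them within Cul1. Ezh2 had the largest KO-only surplus of the 39 genes, and it stayed on the KO side under every alternative tried, with a surplus of 1 to 6 peaks, the lowest when peaks below percentile 50 were left out. In the 10 Mb block of the genome that holds Ezh2, the KO list had 95.2% as many peaks as the WT list.

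Rbbp4, a histone chaperone shared with other chromatin complexes, was the opposite case, with 11 WT and 7 KO peaks, of which 5 were WT-only and none KO-only. The strongest, chr4:129339586-129340038 at percentile 35.3, lay within the neighbouring gene Zbtb8os, as did 2 others. Of the remaining 2 peaks, 1 lay inside Rbbp4 (percentile 0.353) and 1 in Sync. The start peak of Rbbp4 was the strongest of the PRC2 group, at percentile 98.6 in WT and 97.7 in KO, and it also covers the start of Zbtb8os. In its 10 Mb block the KO list had 83.8% as many peaks as the WT list.

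Of the other PRC2 genes, Eed had a start peak at percentile 96.7 in WT and 94.5 in KO, Rbbp7 at 93.8 and 91.0, Suz12 at 90.8 and 94.5, Jarid2 at 87.2 and 86.3, and Ezh1, the paralogue that persists in resting cells, at 67.9 and 71.4. Ezh1 was thus the weakest of the group in both lists. At Suz12 a KO peak of 2079 bp, chr11:79992383-79994461, overlapped 3 WT peaks, while a WT-only peak, chr11:79973643-79974540, stood at percentile 55.2 at -19354 bp from the start. Jarid2 spans 190.87 kb and had 20 peaks in each list, 4 of them WT-only and 3 KO-only. The strongest of these, chr13:44907637-44908342 at percentile 46.5, was a KO-only peak inside the gene.

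**Figure D2:**
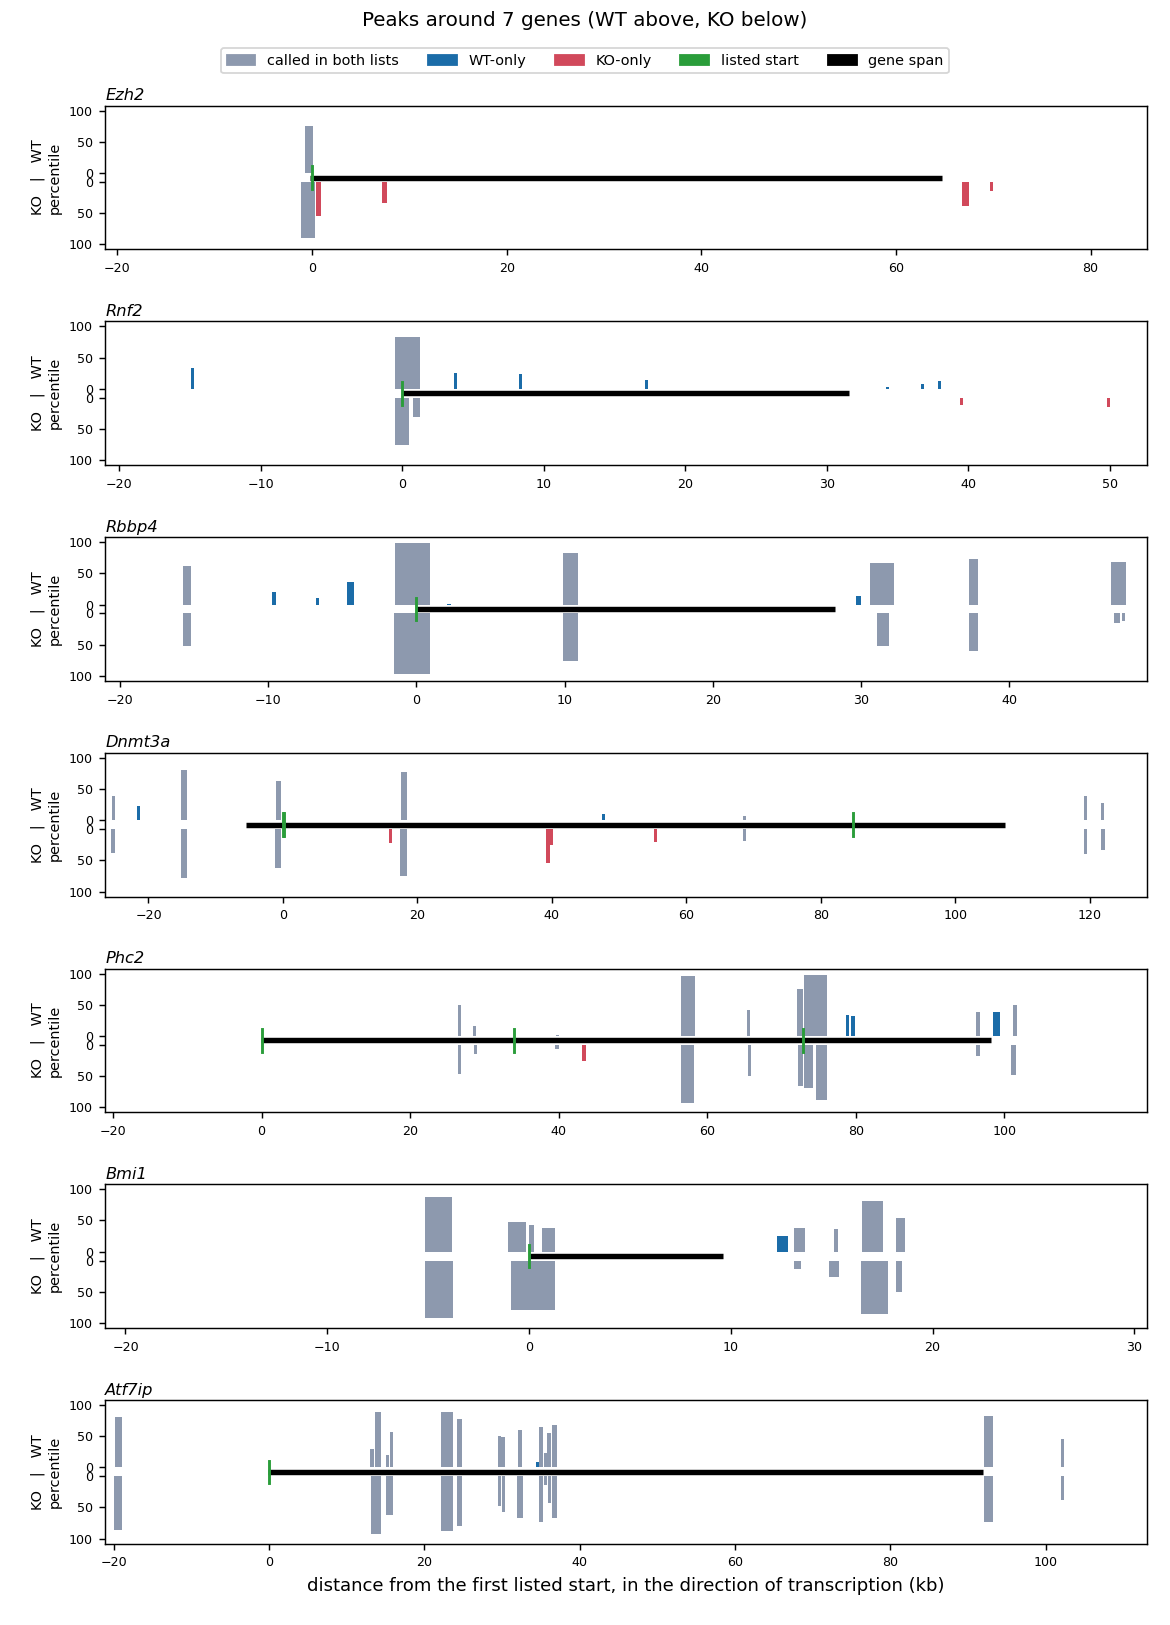
Peaks around 7 of the genes by distance in kb from the first listed start, WT above and KO below the gene line, with bar height as the signal percentile within its own list (peaks too narrow to see are drawn at a minimum width). Ezh2 has 1 WT and 6 KO peaks, the 5 that are KO-only in red (1 of them, at percentile 0.355, is too low to be seen), while Rnf2 has 7 blue WT-only bars and Atf7ip shows no bar at its start in either genotype.

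In the 20 kb windows, PRC1 had a larger share of WT-only peaks than the other groups. The order depended on the window: with 50 kb on either side PRC2 had 25.9% against 22.3% for PRC1, and with gene spans alone the DNA methylation genes had 25% against 20.8%. The 14 PRC1 genes had 108 WT peaks, 28 of them WT-only (25.9%), and 91 KO peaks, 8 of them KO-only (8.79%). For all genes these shares were 18.5% and 12.2%, as given above. WT-only peaks were more numerous at 13 of the 14 genes, KO-only peaks at none, and Cbx7 had 2 of each. Of all protein-coding genes, 37.4% had more WT-only and 19.2% more KO-only peaks. The 13 include the neighbours Cbx2 and Cbx8, whose 2 WT-only peaks are the same. The number stayed at 13 with 50% reciprocal overlap and the stricter summit threshold (37.2% and 37.0% of all genes). It fell to 8 when a peak of the other list within 1 kb counted as shared (30.7% of all genes). With gene spans alone it fell to 5 (20.2% of all genes). With lists of equal length the group still had more WT-only peaks, 12 against 6. The gene count then moved to 8 genes with more WT-only peaks, 4 with more KO-only peaks and 2 with equal numbers. Of all protein-coding genes, 23.6% had more WT-only and 22.4% more KO-only peaks in those lists. As shares of its peaks, the group then had 16.2% WT-only and 8.57% KO-only. All protein-coding windows gave 13.8% and 13.9%, so the WT-only share was then near the background. With only the upper 50% of peaks by signal, 2 WT-only peaks and no KO-only peak were left. The genotype-only peaks of PRC1 genes were as weak as those elsewhere, with median percentiles of 13.6 in WT and 15.4 in KO.

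**Figure D3:**
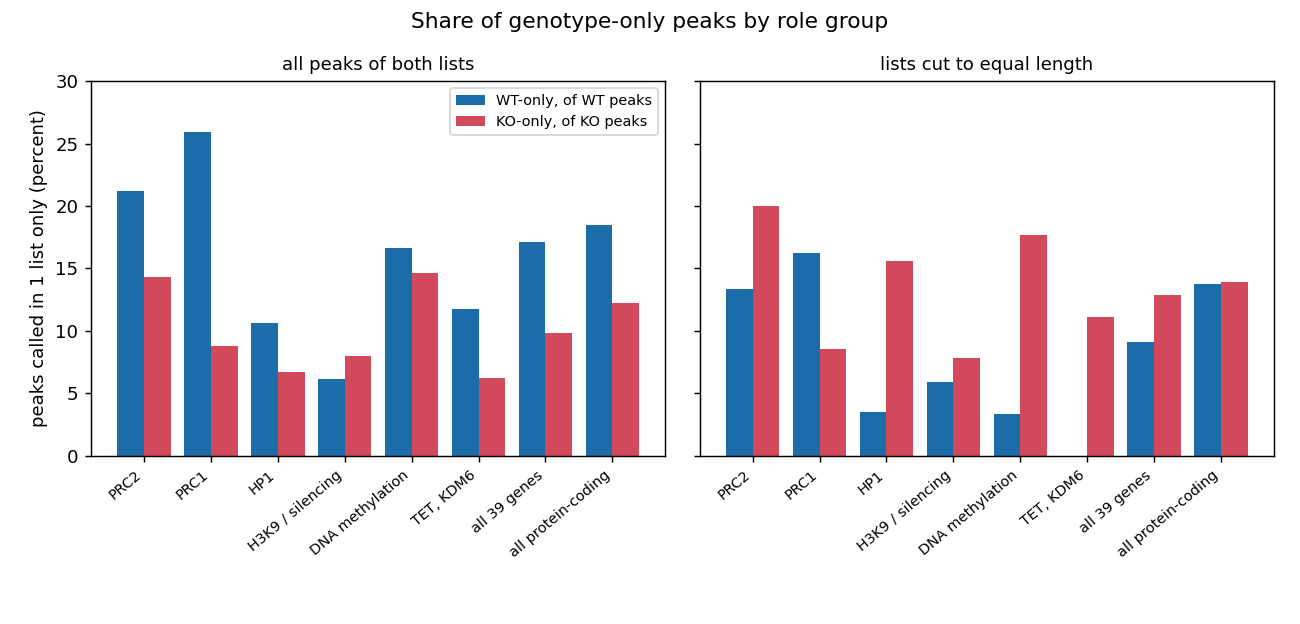
Share of peaks called in 1 genotype only, in percent of that list's peaks, for the 6 role groups, the 39 genes together and all protein-coding genes, with all peaks (left) and with lists cut to equal length (right). PRC1 has a WT-only share of 25.9% against 8.79% KO-only on the left and remains higher on the WT side on the right (16.2% against 8.57%), whereas the 39 genes together turn from 17.1% against 9.85% to 9.09% against 12.9%.

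Among the catalytic subunits of PRC1, Rnf2 (RING1B), the main H2A ubiquitin ligase, had 8 WT peaks, 7 of them WT-only, and 4 KO peaks, 2 of them KO-only. The 7 WT-only peaks were narrow, between 169 and 253 bp, at percentiles of 3.22 to 32.7. Of these, 3 lay inside the gene and 4 outside it. The start peak of Rnf2, chr1:151499781-151501537 in WT at percentile 83.4, met 2 KO peaks, at percentiles 76.4 and 31.2. Its block had 96.2% as many KO as WT peaks, and the WT-only surplus dropped to 1 peak with lists of equal length and to 0 in the upper 50% by signal. The paralogue Ring1 had 1 WT-only peak and a start peak at percentile 78.1 in WT and 66.7 in KO, and the KO value was lower also by signal per bp and by summit p.

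The Pcgf proteins distinguish the variants of PRC1. Pcgf2 (Mel18) had the strongest start peak of all 39 genes, percentile 99.92 in WT and 99.93 in KO. This peak, chr11:97699584-97704077 in WT, is 4494 bp wide and also covers the start of Psmb3, a proteasome gene. Its WT summit, at 97703276, lies -3628 bp from the listed start of Pcgf2. That start lies inside the gene, whose annotated 5′ end on the minus strand is at 97702434, nearer to the summit and also under the peak. Bmi1 (Pcgf4), known for repressing the Cdkn2a locus in fibroblasts, showed the largest percentile difference, 48.0 in WT and 79.9 in KO. There the KO list has 1 peak of 2179 bp, chr2:18676139-18678317, where the WT list has 3 separate peaks, chr2:18675982-18676872, chr2:18676999-18677266 and chr2:18677676-18678320, at percentiles 48.0, 42.0 and 37.5. The summit −log10 p, which does not grow with width, was 9.14 in WT and 9.85 in KO, a difference of 4.71 percentile points. Pcgf6 had a start peak of 1650 bp at percentile 91.5 in WT and of 1101 bp at 77.2 in KO, with summits 2 bp apart. Its summit −log10 p was 15.9 in WT and 11.5 in KO, so the KO value was lower by each of these measures. The 10 Mb block of Pcgf6 held 75.6% as many KO as WT peaks.

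Pcgf5 had start peaks at percentiles 96.4 in WT and 92.4 in KO and 2 WT-only peaks, the stronger being chr19:36416561-36417059 inside the gene at percentile 52.5. The KO list had 72.5% as many peaks as the WT list in its block, which like that of Pcgf6 is on chromosome 19. Pcgf1 had start peaks at 90.7 and 91.5. Its window held the strongest WT-only peak at any of the 39 genes, chr6:83070415-83071399, 985 bp wide at percentile 79.6, which lies in no annotated gene, and the nearest KO peak was 3394 bp away.

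The polyhomeotic proteins Phc1, Phc2 and Phc3 polymerise PRC1 into larger assemblies. At Phc2 the WT list has 1 peak of 3003 bp, chr4:128727773-128730775, at percentile 98.2. The KO list has 2 peaks there, chr4:128727778-128728957 at percentile 69.0 and chr4:128729383-128730808 at percentile 88.6. The second of these shares the WT summit position within 5 bp, 128729909 in WT and 128729914 in KO, with a summit −log10 p of 15.5 in WT and 13.6 in KO. The difference between 98.2 and 69.0 therefore sets a joined WT peak beside 1 of 2 KO peaks. A separate peak over the third listed start of Phc2 stood at 74.99 in WT and 66.1 in KO. Phc2 also had 3 WT-only peaks, at percentiles 37.9, 33.5 and 32.1, and 1 KO-only peak at 26.6. Phc3 had start peaks at 96.8 and 92.8 and Phc1 at 74.6 and 71.1, each with 1 WT-only and no KO-only peak.

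The chromobox proteins Cbx2, Cbx6, Cbx7 and Cbx8 bind methylated H3K27 in canonical PRC1. Cbx2 and Cbx8 are neighbours on chromosome 11, so 10 WT and 9 KO peaks counted for both genes are the same peaks, including their 2 WT-only peaks (percentiles 1.10 and 2.49). Each had a surplus of 2 WT-only peaks, which turned to a KO-only surplus of 2 at Cbx2 and 1 at Cbx8 with lists of equal length. The start peak stood at 93.4 in WT and 88.7 in KO for Cbx2, 96.7 and 96.4 for Cbx8, and 89.1 and 92.8 for Cbx6. Cbx7 had the weakest start peak of the PRC1 genes, at 45.5 in WT and 48.9 in KO.

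At the HP1 genes the shares of genotype-only peaks could not be told apart from the background. Cbx1 (HP1 beta), Cbx3 (HP1 gamma) and Cbx5 (HP1 alpha) had 47 WT peaks, 5 of them WT-only (10.6%). They had 45 KO peaks, 3 of them KO-only (6.67%). The shares over all protein-coding windows were 18.5% and 12.2%. The intervals for shared HP1 peaks, 76.9% to 96.5% in WT and 81.7% to 98.6% in KO, held the 81.5% and 87.8% of all windows. With lists of equal length the HP1 counts became 1 WT-only (3.45%) and 5 KO-only (15.6%), where all protein-coding windows gave 13.8% and 13.9%. The start peak of Cbx5 stood at 99.53 in WT and 99.70 in KO and also covers the start of Hnrnpa1. That of Cbx3 stood at 97.7 in WT and 99.04 in KO and also covers the start of Hnrnpa2b1. In each case the peak cannot be assigned to 1 gene of the pair. Cbx1 was lower, at 84.6 in WT and 82.7 in KO, with 2 WT-only peaks and no KO-only peak.

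Of the peaks at the 7 genes of H3K9 methylation and silencing, 4 of 65 in WT were WT-only (6.15%) and 5 of 63 in KO were KO-only (7.94%). The shares over all protein-coding windows were 18.5% and 12.2%. With lists of equal length the counts at the 7 genes became 3 and 4. Suv39h2, which trimethylates H3K9, had 2 WT and 3 KO peaks and a start peak at 85.9 in WT and 93.1 in KO. Ehmt1 (GLP) and Ehmt2 (G9a), which together form the main H3K9 dimethyltransferase, had start peaks at 87.9 and 91.9 and at 93.1 and 91.0, in WT and KO. Ehmt1 had 3 KO-only peaks and 1 WT-only peak, all inside the gene at percentiles of 0.208 to 11.002. Setdb1, which is brought to retroelements by Trim28, had 11 peaks in each list, all shared, with start peaks at 81.3 in WT and 83.4 in KO. Trim28 (KAP1) had 9 WT and 8 KO peaks, all shared, with start peaks at 93.4 and 88.7. Smchd1, which maintains silencing on the inactive X chromosome, had the strongest start peak of the group, 98.8 in WT and 98.3 in KO, and 2 WT-only peaks.

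Atf7ip, the partner that stabilises Setdb1, was the exception among the 39 genes. It had no peak within 1 kb of its listed start in either list, although its window held 17 WT and 14 KO peaks. The first peaks inside the gene lay over 13 kb downstream of that start. The strongest was chr6:136541021-136542606 in WT, at percentile 88.2, and chr6:136531948-136533335 in KO, at percentile 92.6. Apart from 1 weak WT-only peak at percentile 8.28, every peak in the window was shared. Whether these fibroblasts use a start that the annotation used here does not list was not tested.

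The DNA methylation genes had 42 WT peaks, 7 of them WT-only, and 41 KO peaks, 6 of them KO-only, and these counts became 1 and 6 with lists of equal length. Dnmt1, the maintenance methyltransferase, had start peaks at 96.6 in WT and 97.3 in KO, and Uhrf1, which guides it to newly replicated DNA, at 98.5 and 97.9. Uhrf1 had 4 WT-only peaks, at percentiles of 4.19 to 14.2, and 1 KO-only peak, chr17:56331141-56331622, which was the strongest KO-only peak of all at percentile 61.0 and lies within the neighbouring gene Kdm4b. Its WT-only surplus of 3 turned to a KO-only surplus of 1 with lists of equal length and with the upper 50% of peaks. Its block held 74.4% as many KO as WT peaks.

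The de novo methyltransferases had weaker start peaks. Dnmt3a stood at 62.7 in WT and 62.6 in KO, and Dnmt3b, which is mainly active in the early embryo, at 19.99 in WT and 15.1 in KO, the lowest of the 39 genes in both lists. Dnmt3a had 4 KO-only peaks inside the gene, at percentiles of 20.2 to 53.7, the strongest at chr12:3846054-3846654. It had 2 WT-only peaks, 1 of them inside the gene, at percentiles 22.2 and 10.0. The KO-only surplus of Dnmt3a was 1 to 3 peaks under the alternatives tried.

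The enzymes that remove repressive marks had start peaks above percentile 88 in both lists. The TET enzymes oxidise methylated cytosine, and their start peaks stood at 94.3 in WT and 90.8 in KO for Tet1, 92.7 and 96.9 for Tet2, and 90.7 and 92.2 for Tet3. Kdm6b (JMJD3), which removes methyl groups from H3K27, stood at 91.0 and 88.6. The group had 34 WT peaks with 4 WT-only, and 32 KO peaks with 2 KO-only, which became 0 and 3 with lists of equal length. At Tet1 the highest point of the start peak was at a different place in each list, with summits 1322 bp apart.

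A peak was called at or near the gene start in both genotypes at nearly all of these genes. A start peak is the strongest peak overlapping 1 kb on either side of a listed start, and 38 of the 39 genes had one in both lists, with Atf7ip in neither. The start peak contained a listed start at 32 genes in WT and 31 in KO, a count not made over all genes. It did not at Dnmt3a and Phc2 in both lists, Bmi1 in WT, and Cbx7 and Dnmt3b in KO. Cbx2, Kdm6b and Pcgf1 have no listed start. Of all protein-coding genes, 55.0% had a start peak in each list, 2.01% had one in WT alone, 1.08% in KO alone and 41.9% had none. At the 38 starts the WT median percentile was 91.2 and the KO median 91.0, where all genes open in both lists had medians of 91.6 and 90.2. At or above percentile 90 were 23 starts in WT and 22 in KO, where all genes open in both gave 56.7% and 50.6%. The KO percentile was higher at 16 and lower at 22 of the 38, and 34.0% of all genes open in both were higher in KO. The median absolute difference was 3.46 points, against 2.05 for all genes, and 31 of the 38 starts differed by under 5 points, as did 75.8% of all genes open in both.

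At 5 of the 38 genes the difference was 10 points or more, namely Bmi1, Ezh2, Phc2, Pcgf6 and Ring1, where 11.3% of all genes open in both differed as much. To separate strength from width, the percentiles of signal per bp and of the summit p were set beside that of the signal. By all 3 measures, 9 starts were higher in KO (Bmi1, Cbx3, Cbx5, Cbx7, Ehmt1, Ezh2, Suv39h2, Tet2 and Tet3) and 13 were lower (Cbx2, Eed, Ehmt2, Jarid2, Pcgf5, Pcgf6, Phc2, Phc3, Rbbp4, Ring1, Tet1, Trim28 and Uhrf1), while 16 were mixed. These counts were not made over all genes, so no background stands beside them. Of the 13, Phc2 and Tet1 had summits 2007 and 1322 bp apart, so their summit p values belong to different points. The same holds at Rbbp4, Phc3 and Ehmt2, with summits 603, 579 and 390 bp apart. At Phc2 the signal per bp also sets a joined WT peak beside 1 of 2 KO peaks. For Ezh2 the summit p percentile was 70.9 in WT and 91.6 in KO, a larger gap than by signal. For Pcgf6 the WT value was 88.9 and the KO value 60.4. Joined or split calls touched 8 starts, and such calls were not counted over all genes. A WT start peak met more than 1 KO peak at Kdm6b, Phc2, Rbbp7 and Rnf2, and a KO start peak met more than 1 WT peak at Bmi1, Cbx3, Suz12 and Trim28.

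**Figure D4:**
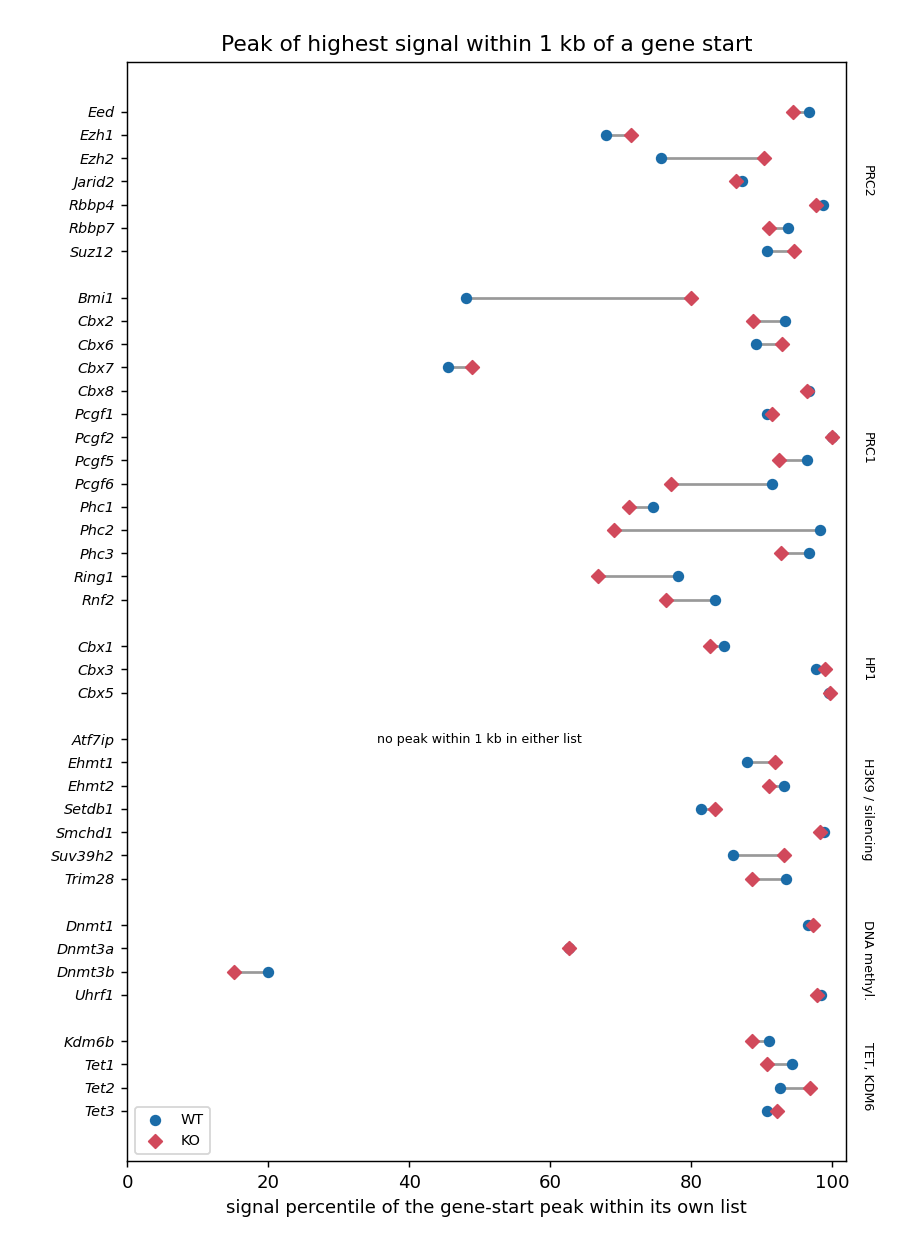
Signal percentile of the gene-start peak of each gene within its own list, WT as blue circles and KO as red diamonds joined by a line. Most pairs lie close together and above 80, the long lines belong to Bmi1 (48.0 to 79.9) and Phc2 (98.2 to 69.0), and Dnmt3b is the lowest at 19.99 and 15.1.

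The promoters of the genes with the clearest start patterns are shown to let their CpG content be read. They run from 250 bases before to 50 bases after the listed start, 5′ to 3′, with each CG in capitals, and come from RefSeq on build GRCm38.p6. Atf7ip and the first start of Phc2 had no peak, the third start of Phc2 lay beside the widest split peak, Bmi1 and Ezh2 had the largest percentile differences toward KO, and Pcgf2 had the strongest peak.
Atf7ip, chr6:136518601-136518900, plus strand: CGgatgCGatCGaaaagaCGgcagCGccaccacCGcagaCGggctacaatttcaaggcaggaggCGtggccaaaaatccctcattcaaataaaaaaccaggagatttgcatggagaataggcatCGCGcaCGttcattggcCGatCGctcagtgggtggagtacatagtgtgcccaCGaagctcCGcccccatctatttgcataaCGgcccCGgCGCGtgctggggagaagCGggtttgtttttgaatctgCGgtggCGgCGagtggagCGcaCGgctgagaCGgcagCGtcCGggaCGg
Phc2, the first start, chr4:128654452-128654751, plus strand: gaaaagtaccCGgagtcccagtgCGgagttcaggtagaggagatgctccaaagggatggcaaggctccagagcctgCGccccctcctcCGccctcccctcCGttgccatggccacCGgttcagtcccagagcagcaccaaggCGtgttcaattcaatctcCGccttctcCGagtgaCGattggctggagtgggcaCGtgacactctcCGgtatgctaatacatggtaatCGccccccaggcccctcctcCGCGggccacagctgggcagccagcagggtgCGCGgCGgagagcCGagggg
Phc2, the third start, chr4:128727321-128727620, plus strand: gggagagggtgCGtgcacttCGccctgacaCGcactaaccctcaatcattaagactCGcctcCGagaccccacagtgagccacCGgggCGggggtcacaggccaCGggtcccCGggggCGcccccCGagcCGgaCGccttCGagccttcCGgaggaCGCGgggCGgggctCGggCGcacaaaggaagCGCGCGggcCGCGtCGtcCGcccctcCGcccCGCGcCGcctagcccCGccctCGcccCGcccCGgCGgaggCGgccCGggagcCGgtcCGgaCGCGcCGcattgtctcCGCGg
Bmi1, chr2:18676768-18677067, plus strand: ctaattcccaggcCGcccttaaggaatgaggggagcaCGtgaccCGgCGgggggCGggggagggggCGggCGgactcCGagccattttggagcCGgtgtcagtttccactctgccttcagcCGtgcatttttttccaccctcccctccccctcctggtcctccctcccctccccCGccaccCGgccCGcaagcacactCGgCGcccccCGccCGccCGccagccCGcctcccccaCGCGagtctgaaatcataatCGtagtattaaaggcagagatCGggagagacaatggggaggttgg
Ezh2, chr6:47594981-47595280, minus strand: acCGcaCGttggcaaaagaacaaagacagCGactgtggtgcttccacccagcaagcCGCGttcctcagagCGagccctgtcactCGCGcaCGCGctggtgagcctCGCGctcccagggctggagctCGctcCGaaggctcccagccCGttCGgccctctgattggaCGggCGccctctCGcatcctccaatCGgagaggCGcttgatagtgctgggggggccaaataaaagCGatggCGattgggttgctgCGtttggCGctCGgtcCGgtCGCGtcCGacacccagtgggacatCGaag
Pcgf2, chr11:97699599-97699898, minus strand: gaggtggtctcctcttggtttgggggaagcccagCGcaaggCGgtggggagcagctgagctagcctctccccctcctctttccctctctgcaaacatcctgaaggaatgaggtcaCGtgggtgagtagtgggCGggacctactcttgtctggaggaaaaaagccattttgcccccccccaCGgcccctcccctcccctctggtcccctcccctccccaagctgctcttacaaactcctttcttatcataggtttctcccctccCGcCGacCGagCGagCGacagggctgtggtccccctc

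The third start of Phc2 holds 45 CG dinucleotides in 300 bases and the first, which had no peak, holds 19. Ezh2 holds 31 and Bmi1 23, and both start regions were open in the 2 lists. The pattern is not strict, since Atf7ip holds 29 with no peak. Pcgf2 holds 10, but its listed start lies inside the gene. The summit of its peak lies nearer to the annotated 5′ end, whose bases were not counted. Dnmt3a holds 46 and 47 CG at its first and second starts, which had a peak nearby, and 18 at the third, which had none.

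Of the 39 genes, 36 had promoter entries, with 49 listed starts, and Cbx2, Kdm6b and Pcgf1 had no entry, so for these either gene end was used. A peak lay within 1 kb in both lists at 43 of the 49 starts and in neither list at 6, which belong to Atf7ip, Dnmt1 (first start), Dnmt3a (the third), Phc2 (first and second) and Pcgf5 (second). Every one of those genes except Atf7ip had another start with a peak. The median CG count was 30 (range 8 to 57) at the starts with a peak and 11.5 (range 2 to 29) at those without. Over all 21263 protein-coding promoters the medians were 21 with a peak in both lists and 4 with none. The share with a peak in both lists climbed from 12.3% at 0 to 4 CG to 84.7% at 25 or more. No start of the 39 genes had a peak in 1 list only.

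**Figure D5:**
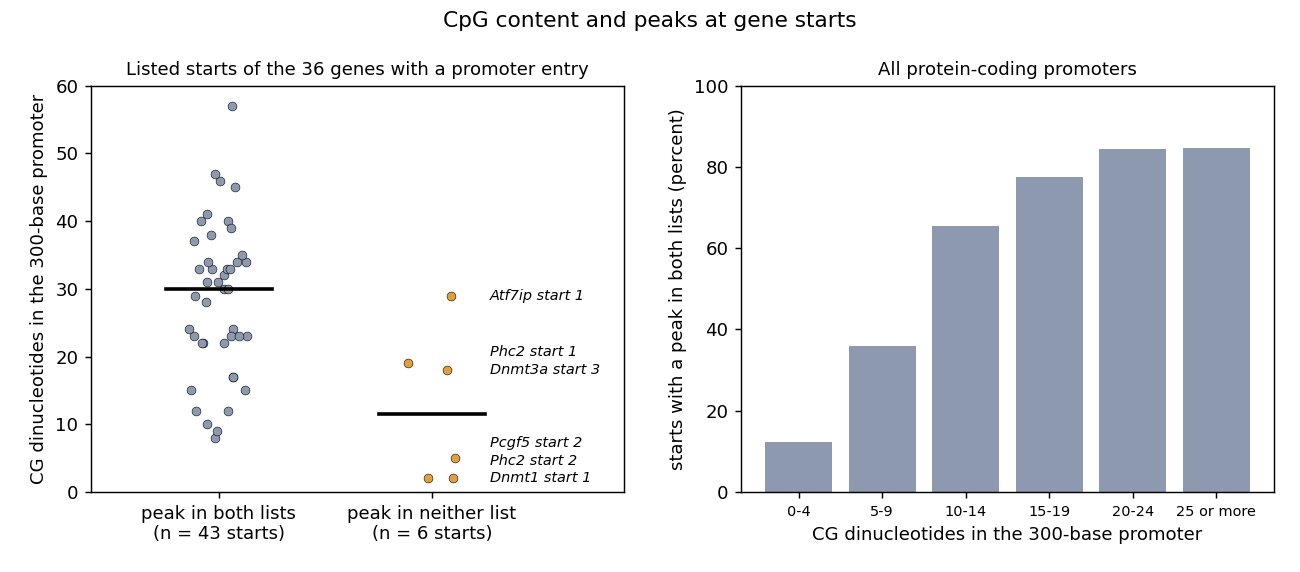
Left, number of CG dinucleotides in the 300-base promoter of each of the 49 listed starts, split by whether a peak lay within 1 kb in both lists (43 starts) or in neither (6), with medians of 30 and 11.5 as bars. Right, percent of all protein-coding promoters with a peak in both lists by CG count, from 12.3% in the lowest class to 84.7% in the highest.

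Short motifs were searched on both strands of the same 300 bases, overlaps between motifs were allowed, and windows of neighbouring starts of 1 gene can overlap. The SP1/KLF motif GGGCGG was present in 40 of the 49 promoters (81.6%), against 46.2% of all promoters and 65.0% of those with a peak in both lists. The E-box CACGTG was present in 11 (22.4%), against 7.84% of all and 10.2% of open promoters. The E2F motif TTTGGCGC, of the family that drives genes of DNA replication, was found in 3 (6.12%), at Ezh2, Dnmt1 and Cbx3, against 0.635% of all and 1.01% of open promoters. In the Ezh2 promoter printed above it lies just after the start. The other E2F forms searched were found once each, TTTCCCGC at Suz12 and TTTGGCGG at Cbx5. They were in 1.41% and 0.673% of all promoters, and in 2.15% and 1.01% of open promoters. The NF-Y motif CCAAT was in 20 (40.8%), close to the 38.2% of all promoters.

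Other motifs were found in few of the 49 promoters. The ETS motif CCGGAAG was in 2 (4.08%), at Phc2 and Setdb1, against 11.6% of all and 18.8% of open promoters. TATAAA was in 1, at Jarid2, against 12.6% of all and 6.65% of open promoters. The AP-1 motif TGANTCA was in 0 of 49, against 6.99% of all and 5.10% of open promoters. The CRE motif TGACGTCA was in 2, at Cbx8 and Suv39h2 (2.23% of all and 3.29% of open promoters). The NRF1 motif was in 3 (6.12%), of Dnmt1 and Phc3, against 1.33% of all and 2.22% of open promoters. These letters are a description of the sequence and show no binding.

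A list of 56 other genes of the same pathways gave similar values. It held 423 WT peaks with 75 WT-only (17.7%), and 413 KO peaks with 49 KO-only (11.9%), and 31 genes had more WT-only, 12 more KO-only and 13 equal numbers. A start peak was listed in both genotypes at 50, in WT only at 3 (Bcorl1, Dnmt3l and Epop) and in neither at 3 (Bcor, Cdyl and Scml2). Auts2, a large gene whose product joins a variant PRC1, had 15 KO-only peaks with 0 WT-only, and L3mbtl2, of another variant PRC1, had 5 with 0. Kdm2b, which brings a variant PRC1 to CpG islands, showed the reverse, with 5 WT-only peaks and 0 that were KO-only. Uhrf2, the paralogue of Uhrf1, had a start peak at 95.4 in WT and 59.8 in KO, and Hells, a remodeller needed for DNA methylation, at 97.0 and 83.0. All 6 WT and 8 KO peaks of Uhrf2 were shared. The part of joined or split calls in these percentiles was not tested. Both Uhrf2 and Hells lie in a block of chromosome 19 with 72.5% as many KO as WT peaks, the same block as Pcgf5.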

How the data were processed

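Data from 3 WT and 3 KO ATAC-seq libraries were used as 2 peak lists, 1 per genotype. Per the submitters' processing notes, Bowtie2 2.5.1, Genrich and deepTools 3.5.1 were used with build GRCm38. Genrich's version and settings, any Tn5 shift, and how the libraries were combined are not given in the sources used here. No label says that libraries came from separate animals or cultures. For each peak the authors deposited a score with a ceiling and a q (both not used), a signal, the summit p as −log10, and a summit position. The lowest deposited signal was 200.01 in both lists, and signal carries no stated scaling between lists. Depth is unknown.

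Peaks were assigned to RefSeq GRCm38.p6 gene spans with 20 kb on either side, and all 39 symbols matched. Overlap was at least 1 bp, and counts were checked against bedtools 2.31.1 and tested on simulated data. Analyses used Python 3.11.15, pandas 2.3.3 and scipy 1.17.1. Genes given in full were those with the highest and lowest WT start percentile in each role group, those lacking a start peak in both lists, the 6 with the largest surplus of either kind (ties by symbol), the 5 with the largest percentile difference, and the genes of the 10 strongest genotype-only peaks per list. The other genes were named to account for all 39. The 39 genes and the lists of pathway genes, markers and motifs were chosen with earlier results of these data known. A further marker list is not reported here. No p-value was computed. Alternatives covered the overlap rule, peak threshold, list length, window and start definition. The percentiles of signal per bp and of summit p, and the choice of the peak nearest to the start, were added after seeing the data.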

Additional observations from a re-analysis of the deposited data

How the results depend on the processing

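Each genotype has a single list, so replicate error is unknown and leaving out a library is not possible. No paired analysis was possible because each genotype has 1 peak list and no result comes from a test. A genotype-only peak cannot be told apart from a peak just below the other list's threshold.

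The shares of shared peaks (82.9% WT, 90.1% KO) and the numbers of genotype-only peaks (62 and 33) moved with the overlap rule and the peaks kept. With 50% reciprocal overlap they were 70.7%, 76.4%, 106 and 79, and with a peak of the other list within 1 kb counted as shared, 89.2%, 93.4%, 39 and 22. With the upper 50% by signal they were 98.5%, 98.4%, 3 and 3. With lists of equal length the WT share was 90.9% with 23 WT-only peaks, and the KO values were 87.1% and 34, so KO-only peaks were then the more numerous. Counting gene spans alone gave 25 WT-only peaks, 22 KO-only peaks and a KO share of 86.3%. There were 41 WT-only peaks with 5 kb on either side, and with 50 kb there were 104 WT-only and 62 KO-only. Genes with a start peak in both lists numbered 35 to 38 with the stricter summit threshold, the upper 50%, equal lengths, 250 bp around the start and either gene end, the settings tried for this count. For the 12 genes named for their surplus, 48 values under other settings stayed equal or close to the main value, 44 moved further and 4 turned. The net KO-only minus WT-only number turned to 1 at Uhrf1 in the upper 50% by signal and with equal lengths, and with equal lengths to 2 at Cbx2 and 1 at Cbx8. The cause was not tested. By the peak nearest to the start, signal per bp and summit p, the percentile differences (KO minus WT) were 37.9, 16.2 and 4.71 at Bmi1, -8.89, -51.6 and -45.0 at Phc2, 14.6, 14.2 and 20.7 at Ezh2, -14.3, -22.5 and -28.5 at Pcgf6, and -11.3, -10.9 and -5.99 at Ring1. At Phc2 the values -51.6 and -45.0 pair a WT and a KO peak with summits 2007 bp apart, so they do not compare the same point.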

Other observations

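Several start peaks of these genes are shared with a neighbour. In both lists, 5 of the 38 start peaks also covered a start of another gene. These were Psmb3 at Pcgf2, Hnrnpa1 at Cbx5, Hnrnpa2b1 at Cbx3, Zbtb8os at Rbbp4 and Gm31649 at Trim28. 

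Chromosome 6, where the KO list as a whole had 104.3% as many peaks as the WT list, held 6 of the genes with 7 WT-only and 8 KO-only peaks. On chromosome 4, where the KO list had 85.5% as many peaks, Phc2 and Rbbp4 had 8 WT-only peaks and 1 KO-only peak between them. Pcgf5 and Pcgf6 on chromosome 19, with 78.8%, had 3 and 0. The part of these regional differences in the counts per gene was not tested.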
